A study of Disanthus cercidifolius subsp. longipes with 9 samples.

Results

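The light-harvesting antenna proteins were examined in leaves of Disanthus cercidifolius var. longipes, a deciduous shrub. The antenna was taken as the clusters of transcripts whose KEGG pathway annotation holds ko00196, the pathway of photosynthetic antenna proteins, which gave 42 of the 24385 clusters in the table. They were grouped by the subunit that KEGG names and by photosystem: 12 clusters match 5 Lhca subunits of photosystem I and 30 match 6 Lhcb subunits of photosystem II. Leaves were compared at F1 (young leaves), F2 (near-mature leaves) and F3 (mature leaves), with 3 libraries of mRNA sequencing per stage and no treatment. All leaves came from cutting-raised plants in 1 nursery, and the study took them in the morning from the sunny side of 3 trees. The sample labels give 20, 23 and 26 July as the days of collection, whereas the methods of the study place the stages about a month apart, from April to June. By either account each stage was collected on 1 day, so leaf stage and day of collection cannot be told apart. The labels call only the F1 leaves young, and the names near-mature and mature are those of the study. Which tree gave which library is not stated, so the p-values measure the spread between these libraries only.

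Antenna proteins bind chlorophyll a, chlorophyll b and carotenoids in the thylakoid membrane, absorb light and pass the excitation energy to the reaction centres. Around photosystem II, Lhcb1, Lhcb2 and Lhcb3 form the trimers of the major complex LHCII, and Lhcb4 (CP29), Lhcb5 (CP26) and Lhcb6 (CP24) are monomers that link the trimers to the core. Around photosystem I, Lhca1 to Lhca4 form a belt of dimers, and in Arabidopsis the rare Lhca5 and Lhca6 join photosystem I to the NDH complex of cyclic electron flow. In leaves, transcripts of these nuclear genes are among the most abundant and are known to follow leaf age, light and the circadian clock.

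The deposited table gives a fragment count and an FPKM value (fragments scaled to transcript length and library size) for each cluster and library. Counts over the table ranged from 8657054 to 14284676 per library, of which antenna clusters took 7.78% to 8.37% at F1, 15.4% to 16.0% at F2 and 3.95% to 4.20% at F3. The table held 47.1% to 47.6% of the library size implied by the FPKM values at F1, 47.7% to 47.8% at F2 and 39.3% to 39.8% at F3. Of that implied size, antenna clusters took 3.70% to 3.94% at F1, 7.37% to 7.66% at F2 and 1.55% to 1.67% at F3. The table is limited to clusters with a call by the authors in some comparison, so antenna transcripts that did not change are not analysed here, and the fact that all 42 were called at least once here is no result. The 42 clusters carry 15 cluster numbers (the digits before the point), and clusters with a shared number may share reads, so the sum over the clusters of a subunit was fitted as well. All 42 reached a mean of at least 1 FPKM in some stage. Defining leaf transcripts were present at every stage: clusters of the small subunit of Rubisco and Rubisco activase, markers of photosynthetic mesophyll, summed to 34429 to 41142 FPKM at F1, 34699 to 36781 at F2 and 19902 to 20850 at F3.

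The antenna transcripts were highest in near-mature leaves and lowest in mature leaves. Their summed level was 38767, 36454 and 39315 FPKM in the F1 libraries, 71273, 72318 and 74598 FPKM in the F2 libraries and 16772, 16167 and 15650.2 FPKM in the F3 libraries. The 3 stages did not overlap in this sum. By mean FPKM, 40 of the 42 clusters were highest at F2 and 2 at F1, and 37 were lowest at F3. As these are bulk leaves, fewer cells of a type and less RNA per cell cannot be told apart.

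Single clusters were called with edgeR's quasi-likelihood test where the fold change was at least 2 and the adjusted p below 0.05, with adjustment over all 24385 clusters. From F1 to F2, 13 antenna clusters were upregulated, 2 were downregulated and 27 were not called, whereas 22.0% of all clusters were called higher and 18.8% lower. From F2 to F3, 40 were downregulated, 0 were upregulated and 2 were not called, against 35.8% of all clusters called lower and 29.5% called higher. From F1 to F3, 29 were downregulated, 0 were upregulated and 13 were not called, against 34.7% of all clusters called lower and 35.0% higher. The median log2 fold change of the antenna clusters was 0.87, -2.76 and -1.73 in these comparisons, beside 0.17, -0.37 and 0.00 over all clusters. Any pair of these comparisons shares the libraries of 1 stage. The other standard scaling of counts, RLE, shifted all log2 fold changes by -0.17 between F1 and F2 and by 0.18 between F2 and F3, and turned the split of all calls from 5361 higher and 4594 lower to 4330 higher and 5316 lower in the first of them and from 7184 higher and 8739 lower to 7898 higher and 7672 lower in the second. With library sizes implied by the FPKM values, the second split was 7809 higher and 7712 lower. Without the fold threshold, 30 antenna clusters passed as higher from F1 to F2, so most of those not called there changed by less than 2-fold. The share of all clusters that pass without this threshold was not computed, so that count has no background. The FPKM of 36, 41 and 36 of the 42 clusters did not overlap between the libraries of the stages compared, where 64.4%, 78.9% and 81.0% of all clusters did not.

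Summed per subunit, the counts of every one of the 11 subunits were lower at F3 than at F2, and all 11 were called, where 35.8% of the rows in that fit were called lower. From F1 to F2 the fold change passed 2 for Lhca1, Lhcb1, Lhcb4 and Lhcb5, that is 4 of 11 subunits where 22.0% of rows were called higher, and from F1 to F3 it passed for 9 of 11, all but Lhca3 and Lhcb5, where 34.7% of rows were called lower. Of those 9, the calls of Lhca1, Lhca5 and Lhcb1 lay near the threshold and were lost under some settings, given with each subunit. No subunit's libraries overlapped in FPKM between stages in any of the 3 comparisons. That also held for 64.4% of all clusters from F1 to F2, 78.9% from F2 to F3 and 81.0% from F1 to F3. The sizes differed between subunits: the log2 fold change from F2 to F3 ranged from -1.45 for Lhca5 to -4.08 for Lhcb3.

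**Figure D1:**
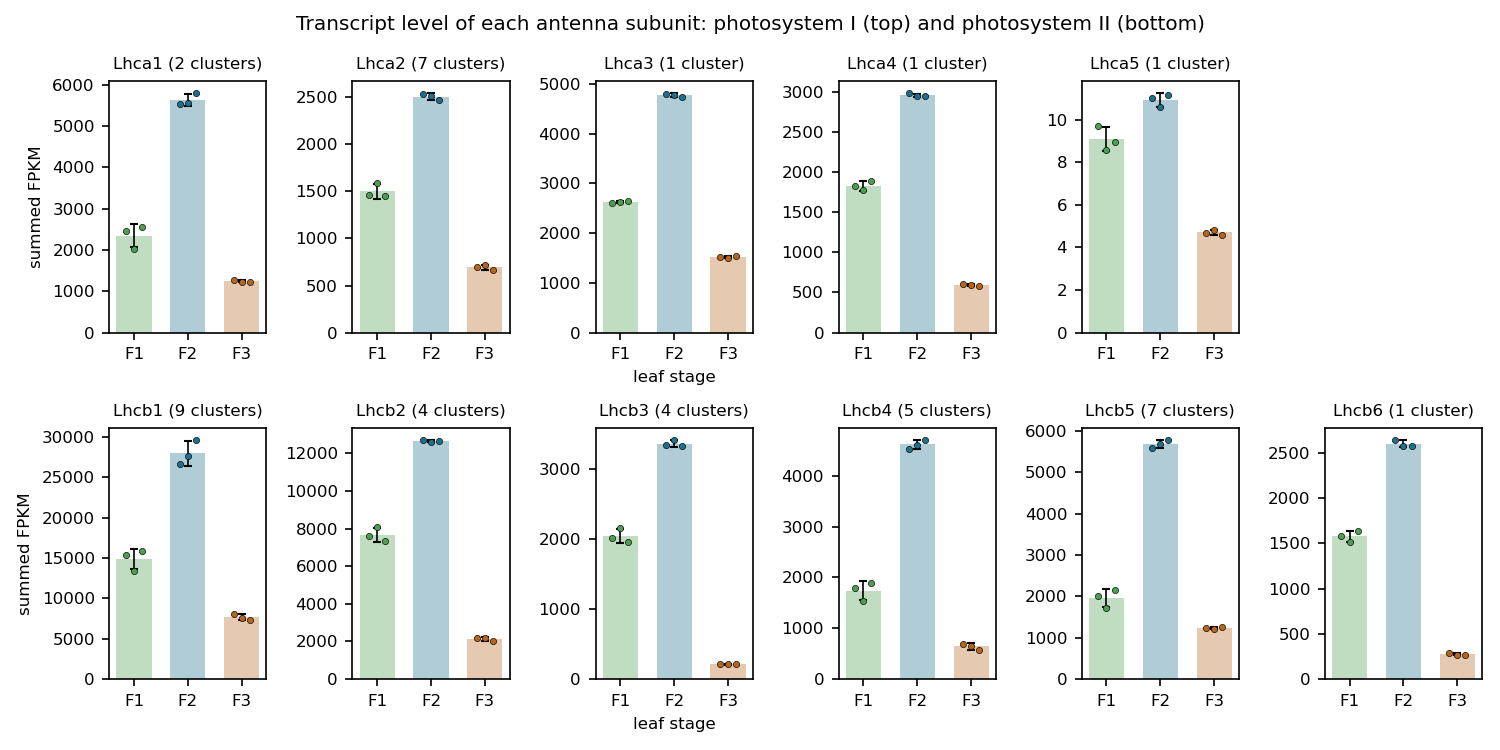
FPKM summed over the clusters of each subunit (vertical axes, each from 0) at the leaf stages F1, F2 and F3 (horizontal axes). Points are the 3 libraries of a stage, bars the mean and error bars the SD. All 11 subunits have their highest mean at F2 and their lowest at F3, and Lhcb3 and Lhcb6 have the smallest bars at F3 relative to F2.

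Lhcb1, the most abundant protein of the LHCII trimer, had 9 clusters and the highest level of the 11 subunits in every stage. Its summed level was 15401, 13411 and 15812 FPKM at F1, 26617, 27649 and 29602 at F2 and 8054, 7615 and 7295 at F3. The libraries of each stage stayed apart from those of the others, with F2 highest. The log2 fold change of its summed counts was 1.00 (SE 0.05, adjusted p = 1.07e-06) from F1 to F2, -2.20 (SE 0.06, adjusted p = 4.38e-09) from F2 to F3 and -1.20 (SE 0.05, adjusted p = 9.60e-08) from F1 to F3 in edgeR. The first value lies at the 2-fold threshold, and the call was lost under 6 other settings, in which it was 0.83 to 0.96, and under the omission of F1 replicate 2 (0.97), F2 replicate 3 (0.96), F3 replicate 1 (0.95) or F3 replicate 3 (0.95). From F1 to F3 the call was lost with limma on log2(FPKM + 1) and on log2(FPKM + 0.1), at -0.96 each. Its most abundant cluster, Cluster-47164.9, measured 7758, 6393 and 8068 FPKM at F1, 12572, 13227 and 14194 at F2 and 5039.5, 4714 and 4467 at F3, and made up 49.8%, 47.7% and 61.9% of the mean Lhcb1 level at the stages in turn. It fell by 1.66 on the log2 scale from F2 to F3 (adjusted p = 1.50e-07, edgeR) and was not called in the other comparisons, with log2 fold changes of 0.90 and -0.76. All 9 Lhcb1 clusters were downregulated from F2 to F3, and 2 were upregulated from F1 to F2.

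Lhcb2, the LHCII subunit whose phosphorylation moves trimers to photosystem I in state transitions, had 4 clusters. They summed to 7623, 8077 and 7314 FPKM at F1, 12701, 12581 and 12666 at F2 and 2186, 2177 and 2018 at F3. The stages did not overlap, and F3 was lowest. The log2 fold change was 0.66 (SE 0.06, adjusted p = 3.22e-05) from F1 to F2, below the fold threshold, -2.77 (SE 0.07, adjusted p = 3.29e-09) from F2 to F3 and -2.12 (SE 0.06, adjusted p = 7.58e-09) from F1 to F3. Its most abundant cluster, Cluster-33836.1, measured 5747, 5950.0 and 5557 FPKM at F1, 9880.2, 9908 and 10066 at F2 and 1789.6, 1773 and 1647 at F3, with log2 fold changes of 0.84, -2.68 and -1.84, the latter 2 called.

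Lhcb3, which occurs in the trimers bound to the core through CP24 and CP29, had the largest decrease among the 11 subunit sums from F2 to F3. Its 4 clusters summed to 2018, 2157 and 1960.0 FPKM at F1, 3336, 3409 and 3320.4 at F2 and 208, 211 and 219 at F3. All F3 libraries lay far below those of the other stages. The log2 fold change was -4.08 (SE 0.06, adjusted p = 2.43e-10) from F2 to F3, a 16.9-fold decrease, and -3.31 (SE 0.06, adjusted p = 3.44e-10) from F1 to F3, a 9.93-fold decrease. From F1 to F2 it was 0.77 (SE 0.05, adjusted p = 4.05e-06), which did not reach 2-fold. By mean FPKM Lhcb3 ranked 5, 7 and 10 of the 11 subunits at F1, F2 and F3. All 4 clusters were downregulated in both comparisons with F3, by 2.18 to 4.59 on the log2 scale from F2. The most abundant of them, Cluster-33903.1, measured 1149, 1234 and 1147 FPKM at F1, 1965, 1995 and 1942 at F2 and 139, 130.1 and 132 at F3, with log2 fold changes of 0.79 (not called), -4.05 and -3.26.

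Among the monomeric subunits of photosystem II, Lhcb6 (CP24), which with CP29 holds the LHCII trimer that contains Lhcb3, had the second largest decrease of the 11 sums from F2 to F3. Its single cluster, Cluster-30836.1, measured 1577, 1516 and 1637 FPKM at F1, 2641, 2577 and 2578 at F2 and 287, 271 and 265 at F3. F3 was well below both other stages, and the log2 fold change was 0.77 (SE 0.04, adjusted p = 7.59e-07) from F1 to F2 (not called), -3.43 (SE 0.04, adjusted p = 1.77e-10) from F2 to F3 and -2.66 (SE 0.04, adjusted p = 2.49e-10) from F1 to F3.

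Lhcb4 (CP29) was upregulated at F2 and downregulated at F3. Its 5 clusters summed to 1785, 1539 and 1899 FPKM at F1, 4533, 4610.0 and 4702 at F2 and 699, 653 and 576 at F3. In edgeR, the log2 fold change was 1.52 (SE 0.07, adjusted p = 3.69e-07) from F1 to F2, -3.17 (SE 0.07, adjusted p = 2.84e-09) from F2 to F3 and -1.65 (SE 0.07, adjusted p = 5.51e-08) from F1 to F3. Its most abundant cluster, Cluster-36179.0, a match to the isoform CP29.1, measured 1297, 1134 and 1362 FPKM at F1, 3136, 3255 and 3358 at F2 and 446, 430.4 and 388 at F3, with log2 fold changes of 1.41, -3.13 and -1.71, all called. Cluster-32025.1, the match to CP29.2, moved by 1.37, -3.22 and -1.85 in the same order, also called each time. The 2 matches to CP29.3, an isoform known from Arabidopsis as Lhcb4.3, were Cluster-53383.1 and Cluster-55199.2. They were downregulated from F2 to F3, with log2 fold changes of -1.11 and -1.42, and were not called from F1 to F3, with -0.32 and 0.48. Cluster-55199.2 was rare, at a mean of 1.21, 4.40 and 1.83 FPKM at F1, F2 and F3, and was upregulated from F1 to F2 (1.90). Cluster-53383.1 has the same number as Cluster-53383.0, a match to CP29.1, so these clusters may share reads. Cluster-53383.1 measured 157, 89.0 and 162 FPKM at F1, 239, 219 and 216 at F2 and 152, 114 and 85.8 at F3, and its share of the Lhcb4 level was 7.69% ± 1.66 at F1, 4.87% ± 0.36 at F2 and 18.0% ± 3.49 at F3 (n = 3, SD). The F3 libraries differed among themselves here, between 85.8 and 152 FPKM.

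Lhcb5 (CP26), the monomer next to the tightly bound trimer, had the largest increase among the 11 subunit sums from F1 to F2. Its 7 clusters summed to 2002, 1723 and 2149.9 FPKM at F1, 5593, 5679.8 and 5786 at F2 and 1237, 1211 and 1250.1 at F3. These counts changed on the log2 scale by 1.65 (SE 0.06, adjusted p = 1.25e-07) from F1 to F2 and -2.36 (SE 0.06, adjusted p = 6.04e-09) from F2 to F3. From F1 to F3 it was -0.71 (SE 0.06, adjusted p = 7.70e-06), a 1.63-fold decrease that was not called. Its most abundant cluster, Cluster-52822.8, measured 1695, 1357 and 1764 FPKM at F1, 5023, 5136 and 5361 at F2 and 1170.0, 1125 and 1164 at F3, with log2 fold changes of 1.74, -2.33 and -0.59, the last not called. At F1, replicate 2 was lowest of its stage for Lhcb1, Lhcb4, Lhcb5, Lhcb6, Lhca1, Lhca4 and Lhca5. It was highest for Lhcb2, Lhcb3 and Lhca2. Of the other 6 Lhcb5 clusters, 5 were downregulated from F2 to F3 and Cluster-52822.3 was not called, with a log2 fold change of -0.58.

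In the photosystem I antenna, Lhca1 and Lhca4 form 1 of the dimers of the belt, and in Arabidopsis Lhca4 carries the chlorophylls that absorb the longest wavelengths. Lhca1 summed to 2458, 2024 and 2552 FPKM at F1, 5530.1, 5562 and 5791 at F2 and 1272, 1219 and 1237 at F3. It rose 2.48-fold from F1 to F2, a log2 fold change of 1.31 (SE 0.06, adjusted p = 4.59e-07), and fell 5.08-fold from F2 to F3, -2.35 (SE 0.06, adjusted p = 6.16e-09). From F1 to F3 the log2 fold change was -1.03 (SE 0.06, adjusted p = 5.76e-07), at the threshold, and the call was lost with 3 other scalings or units (-0.91) and without F1 replicate 3 (-0.98). Nearly all of its level came from Cluster-39499.0, which measured 2436, 2006 and 2530.4 FPKM at F1, 5502, 5533 and 5766 at F2 and 1265, 1203 and 1229 at F3. Lhca4, with the single cluster Cluster-54176.2, measured 1820.3, 1771 and 1884 FPKM at F1, 2977, 2945 and 2945 at F2 and 609.9, 589 and 582 at F3. It was not called from F1 to F2, with 0.74 (SE 0.03, adjusted p = 3.69e-07), and fell from F2 to F3 by 2.48 on the log2 scale (SE 0.04, adjusted p = 2.43e-10) and from F1 to F3 by 1.74 (SE 0.03, adjusted p = 7.33e-10). The dimer partners thus changed in the same directions but by different amounts. The Lhca1 to Lhca4 ratio, which was not tested, was 1.28 ± 0.12 at F1, 1.90 ± 0.06 at F2 and 2.09 ± 0.03 at F3 (n = 3, SD).

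Lhca2 and Lhca3 form the other dimer. Lhca3, with the single cluster Cluster-9532.72, measured 2609, 2634 and 2651 FPKM at F1, 4796, 4783 and 4725 at F2 and 1514, 1501 and 1537 at F3. Its libraries differed little within a stage, and its log2 fold change was 0.90 (SE 0.03, adjusted p = 1.32e-07) from F1 to F2 (not called), -1.82 (SE 0.04, adjusted p = 1.15e-09) from F2 to F3 and -0.92 (SE 0.03, adjusted p = 2.83e-08) from F1 to F3 (not called). The number 9532 also holds 71 other clusters of the table, so it is no family of 1 gene. Lhca2 had 7 clusters, which summed to 1464, 1593 and 1447 FPKM at F1, 2537, 2511 and 2471 at F2 and 700.0, 716 and 668 at F3. Its log2 fold change was 0.84 (SE 0.06, adjusted p = 7.80e-06) from F1 to F2 (not called), -2.10 (SE 0.06, adjusted p = 1.32e-08) from F2 to F3 and -1.26 (SE 0.06, adjusted p = 1.91e-07) from F1 to F3. The most abundant Lhca2 cluster, Cluster-56200.3, measured 1257, 1372 and 1248 FPKM at F1, 2419, 2395 and 2349.9 at F2 and 585, 595 and 553 at F3, with log2 fold changes of 0.93 (not called), -2.21 and -1.29. Lhca5 was rare: Cluster-50878.0 measured 9.72, 8.60 and 8.96 FPKM at F1, 11.0, 10.6 and 11.2 at F2 and 4.70, 4.84 and 4.58 at F3. It was not called from F1 to F2, with 0.34 (SE 0.18, adjusted p = 0.134), and was lower from F2 to F3, with -1.45 (SE 0.18, adjusted p = 1.15e-04), and from F1 to F3, with -1.11 (SE 0.18, adjusted p = 5.15e-04), where the call was lost under 3 other scalings or units (-0.82 to -0.98).

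**Figure D2:**
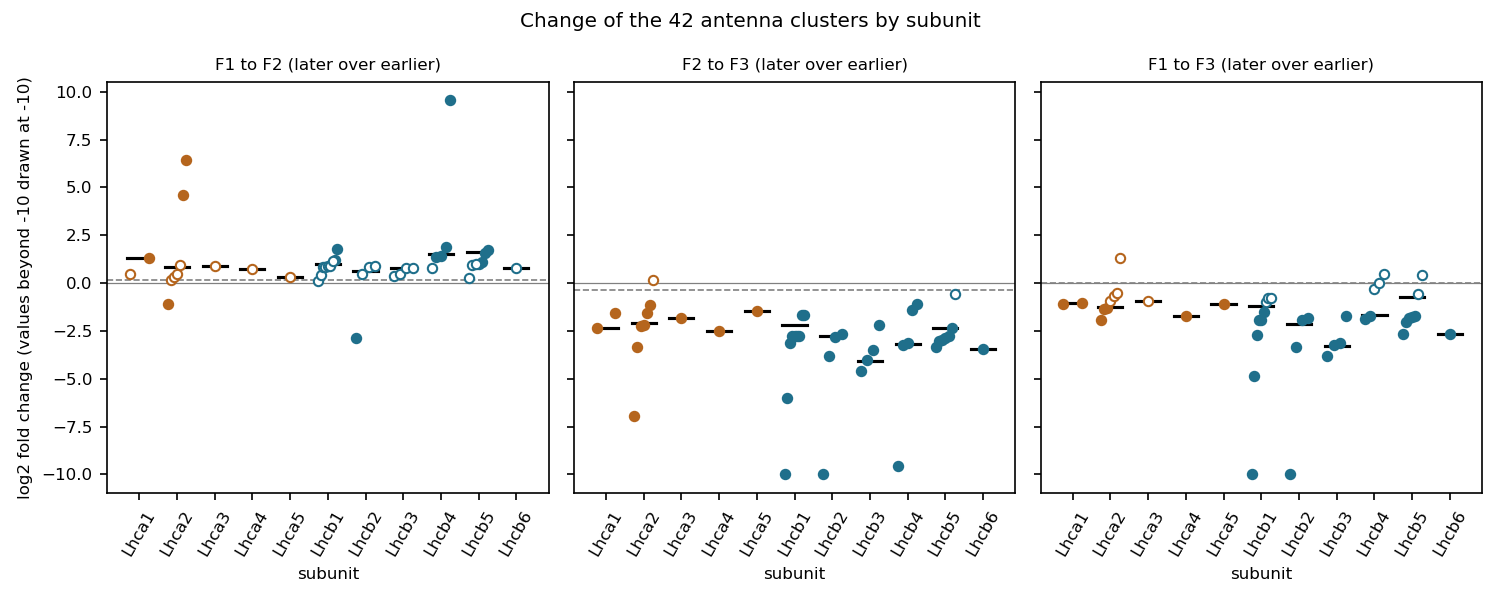
log2 fold change (vertical axis, later over earlier stage, values beyond -10 drawn at -10) of each of the 42 antenna clusters by subunit (horizontal axis) in the 3 comparisons. Filled points were called and open points were not, orange is photosystem I and blue photosystem II, the black bars are the fits of the summed counts, and the dashed lines are the medians of all clusters (0.17, -0.37 and 0.00). From F2 to F3 40 of the 42 points are called lower.

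The changes in level altered the make-up of the antenna transcripts. FPKM of the Lhca clusters was 21.6%, 22.0% and 21.7% of the antenna sum in the F1 libraries, 22.2%, 21.9% and 21.4% in the F2 libraries and 24.4%, 24.9% and 25.7% in the F3 libraries. The F3 libraries lay above all others, and F1 and F2 overlapped. The share of Lhcb1 was 38.9% ± 1.85 at F1, 38.4% ± 1.18 at F2 and 47.2% ± 0.72 at F3, while that of Lhcb2 was 20.1% ± 1.82, 17.4% ± 0.42 and 13.1% ± 0.30 (n = 3, SD). Lhcb3 made up 5.37% ± 0.49, 4.62% ± 0.14 and 1.31% ± 0.08, and Lhcb6 4.13% ± 0.05, 3.57% ± 0.12 and 1.69% ± 0.02. The share of Lhcb5 went from 5.12% ± 0.37 at F1 to 7.82% ± 0.06 at F2 and was 7.62% ± 0.33 at F3. The Lhcb1 to Lhcb3 ratio within a library was 6.22 to 8.07 at F1, 7.98 to 8.92 at F2 and 33.4 to 38.7 at F3, and the Lhcb5 to Lhcb6 ratio was 1.14 to 1.31, 2.12 to 2.24 and 4.31 to 4.72. In all, 30 changes of a subunit's ratio to Lhcb1 were tested with a two-sided exact permutation test over libraries, and 21 had no overlap between stages. Ratios of other clusters were not computed as a background to this count. All of these ratios share the Lhcb1 level and the comparisons share libraries, so the 30 changes are not separate results. With 3 libraries against 3 the smallest p this test can give is 0.1, and after adjustment over the 30 tests it was 0.143, so none could pass 0.05. Stages without overlap always give this smallest p, so no overlap and an exact p of 0.1 are the same observation. The log2 ratio to Lhcb1 changed from F2 to F3 by -2.11 (SE 0.08) for Lhcb3, by -1.38 (SE 0.06) for Lhcb6, by -0.98 (SE 0.05) for Lhcb4, by -0.70 (SE 0.05) for Lhcb2, by -0.45 (SE 0.05) for Lhca4, by -0.34 (SE 0.06) for Lhcb5 and by -0.31 (SE 0.04) for Lhca1, each with exact p = 0.1 and no overlap. It changed upward by 0.65 (SE 0.06) for the rare Lhca5 and by 0.22 (SE 0.07) for Lhca3, likewise without overlap (exact p = 0.1). For Lhca2 the F2 and F3 libraries overlapped, with a change of 0.02 (SE 0.07, exact p = 0.9), but with its Lhca6 match kept apart, an alternative chosen after the data were seen, the change was -0.18 (SE 0.06, exact p = 0.1) without overlap.

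**Figure D3:**
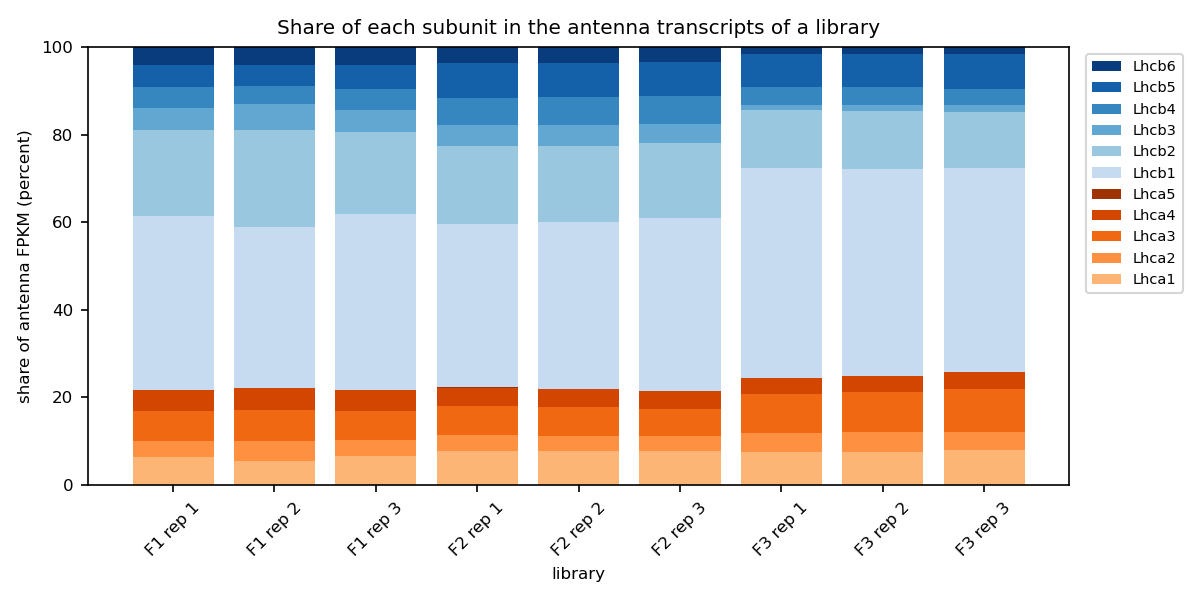
Share of each subunit in the summed antenna FPKM of a library (stacked bars, percent, from 0 to 100) for the 9 libraries along the horizontal axis, photosystem I in orange and photosystem II in blue. Lhcb1 takes 47.2% of the sum on average at F3 against 38.9% at F1, and Lhcb3 falls from 5.37% to 1.31%. Lhca5 is too small to see.

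Clusters of 1 subunit did not always move together. Cluster-9532.34, which KEGG places with Lhca2 but whose Swiss-Prot match is Lhca6, was 1 of the 2 antenna clusters downregulated from F1 to F2. It measured 189, 201 and 177 FPKM at F1, 85.7, 85.8 and 83.6 at F2 and 107, 113 and 106 at F3. F2 was lowest, unlike in the other clusters. Its log2 fold change was -1.12 (SE 0.07, adjusted p = 3.75e-06) from F1 to F2, 0.19 (SE 0.07, adjusted p = 0.0447) from F2 to F3 and -0.93 (SE 0.07, adjusted p = 4.44e-06) from F1 to F3, the latter 2 under the fold threshold. From F1 to F3 it was called without F3 replicate 1 (-1.001) or F3 replicate 3 (-1.009). It made up 12.6% ± 0.36 of the Lhca2 level at F1, 3.39% ± 0.02 at F2 and 15.6% ± 0.36 at F3 (n = 3, SD). With it kept apart, an alternative chosen after the data were seen, the log2 fold change of the other Lhca2 counts was 0.93, -2.22 and -1.29.

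Cluster-33836.3, of Lhcb2, was the other cluster downregulated from F1 to F2. It measured 347, 411 and 366 FPKM at F1, 43.4, 52.9 and 52.2 at F2 and 0, 0.05 and 0 at F3. The level fell stepwise, whereas the other 3 Lhcb2 clusters were highest at F2. The log2 fold change from F1 to F2 was -2.88 (SE 0.12, adjusted p = 2.65e-07). The F3 libraries held 0, 1 and 0 counts of it, so that the F2 to F3 ratio of 6398 has a 95% counting interval of 1148 to 252707 and the F1 to F3 ratio of 47095 one of 8453 to 1860136, which cover counting error only. Its share of the Lhcb2 level was 4.88% ± 0.29 at F1 and 0.39% ± 0.04 at F2 (n = 3, SD).

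Cluster-47164.5, of Lhcb1, was at 0 counts in all F3 libraries. It measured 788, 673 and 894 FPKM at F1 and 773, 849 and 848 at F2. F1 and F2 overlapped, and its log2 fold change between them was 0.12 (SE 0.09, adjusted p = 0.272), not called. Against a floor of 3 counts per library it was at least 7286-fold lower at F3 than at F2 and at least 6704-fold lower than at F1. The other 8 Lhcb1 clusters were also downregulated from F2 to F3. The most extreme of these, the rare Cluster-47164.8, measured 1.02, 0.84 and 1.44 FPKM at F1, 3.37, 1.61 and 2.16 at F2 and 0.09, 0.05 and 0 at F3, with log2 fold changes of -6.02 from F2 to F3 and -4.86 from F1 to F3. Without F3 replicate 1 these were -7.21 and -6.10, and with limma on log2(FPKM + 1) the second was -0.995 and not called.

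Cluster-53383.0, a match to CP29.1 of Lhcb4, was nearly confined to F2 in these libraries. It measured 0.54, 0.49 and 0.22 FPKM at F1, 293, 279 and 286 at F2 and 0.17, 0.79 and 0.34 at F3. An increase of 9.56 (SE 0.36, adjusted p = 1.35e-07) on the log2 scale from F1 to F2 was followed by a change of -9.57 (SE 0.36, adjusted p = 3.91e-08) from F2 to F3, or of -10.48 without F3 replicate 2. At F2 it made up 6.20% ± 0.22 (n = 3, SD) of the Lhcb4 level, and its log2 fold change from F1 to F3 was -0.01, not called. In Lhca2, Cluster-56200.1 measured 0, 0 and 0.23 FPKM at F1, 5.18, 8.15 and 6.61 at F2 and 0.18, 0 and 0 at F3, and its log2 fold changes to and from F2 were 6.42 (SE 1.13, adjusted p = 0.0014) and -6.93 (SE 1.17, adjusted p = 6.93e-04). Cluster-56200.6 measured 0, 0 and 0.47 FPKM at F1, 2.30, 4.57 and 4.73 at F2 and 0, 0.56 and 0.73 at F3, with 4.62 (SE 1.39, adjusted p = 0.0212) and -3.33 (SE 1.27, adjusted p = 0.0395). Both were at 0 in some libraries of F1 and F3. Without F1 replicate 3 the first increase was 11.88 for Cluster-56200.1 and 10.69 for Cluster-56200.6, and without F3 replicate 1 the decrease of Cluster-56200.1 was -11.86, each against a stage left at 0 counts, where the fitted value is no bound. The calls of Cluster-56200.6 were lost without F1 replicate 1 or 2 or F2 replicate 2 or 3 from F1 to F2 (adjusted p = 0.0507 to 0.055) and without any F2 or F3 library from F2 to F3 (adjusted p = 0.0521 to 0.0887), and with DESeq2 for the latter (adjusted p = 0.083). Without F1 replicate 3 it was called higher from F1 to F3, with a log2 fold change of 7.36.

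**Figure D4:**
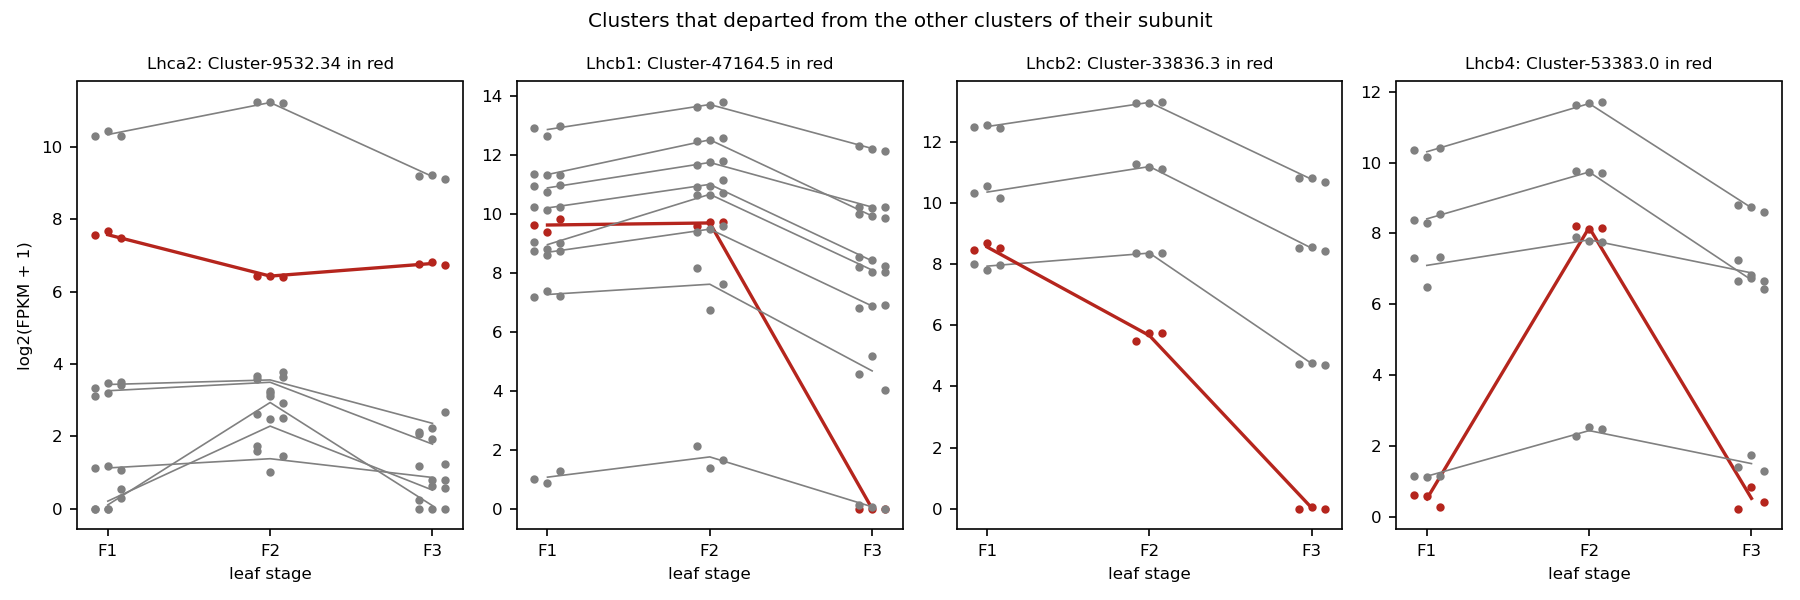
log2(FPKM + 1) (vertical axes) of every cluster of Lhca2, Lhcb1, Lhcb2 and Lhcb4 at the 3 stages (horizontal axes), with points for libraries and lines through the stage means. The red clusters are the Lhca6 match (lowest at F2), an Lhcb1 cluster at 0 counts at F3, an Lhcb2 cluster that falls from stage to stage and an Lhcb4 cluster at 279 to 293 FPKM at F2 and under 1 FPKM elsewhere.

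The reaction centres and electron carriers that the antenna serves were described with the 63 clusters of the KEGG photosynthesis pathway outside the antenna. From F1 to F2, 17 of them were upregulated and 4 downregulated, from F2 to F3 7 and 42, and from F1 to F3 11 and 30, with median log2 fold changes of 0.78, -1.49 and -1.10. These are 27.0% and 6.35%, 11.1% and 66.7%, and 17.5% and 47.6% of the list, beside 22.0% and 18.8%, 29.5% and 35.8%, and 35.0% and 34.7% of all clusters, so the share called higher from F1 to F2 was near that of all clusters. The 4 most abundant were PsbR of photosystem II (Cluster-9532.195) and PsaL (Cluster-32838.2), PsaO (Cluster-43177.0) and PsaG (Cluster-43003.0) of photosystem I, with log2 fold changes from F2 to F3 of -1.61, -1.30, -1.50 and -1.78, all called lower, and none called from F1 to F2. Among them PsaO and PsaL, next to the site where LHCII docks on photosystem I, measured 2903 ± 136, 3147 ± 59.4 and 1251 ± 10.1 FPKM and 3434 ± 153, 4259.5 ± 93.9 and 1940.1 ± 37.4 FPKM at F1, F2 and F3 (n = 3, SD). PsbR measured 4147 ± 364, 6143 ± 14.1 and 2251 ± 175 FPKM, and PsaG 2333 ± 82.7, 3583 ± 38.3 and 1168 ± 25.8 FPKM. The ratio of antenna FPKM to the FPKM of this list was 1.20 to 1.40 at F1, 1.80 to 1.90 at F2 and 0.985 to 1.03 at F3, with no overlap between stages. The ratio of antenna FPKM to that of the Rubisco small subunit and Rubisco activase was 0.886 to 1.14 at F1, 1.94 to 2.15 at F2 and 0.775 to 0.816 at F3.

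Factors that insert, protect, phosphorylate or dismantle the antenna were matched by 25 clusters. From F1 to F2, 9 of these were upregulated and 3 downregulated, from F2 to F3 8 and 7, and from F1 to F3 12 and 3, with median log2 fold changes of 0.66, -0.24 and 0.98. From F2 to F3 the shares of 32% called higher and 28% called lower were near the 29.5% and 35.8% of all clusters, while 36% and 48% were called higher in the comparisons from F1, beside 22.0% and 35.0%. The early light-induced proteins (ELIPs), relatives of the antenna proteins that accumulate under excess light, were lowest at F2 and highest at F3. The name rests on the Swiss-Prot match, as the KEGG match of the 3 ELIP1 clusters is an oxidoreductase. The main ELIP1 cluster, Cluster-47813.2, measured 1419.6, 1471 and 1335 FPKM at F1, 281, 288 and 272 at F2 and 5472, 5341 and 5347 at F3. Its stages did not overlap, and F2, its lowest, was the stage where the antenna was highest. Its log2 fold change was -2.28 (SE 0.06, adjusted p = 2.53e-08) from F1 to F2, 4.10 (SE 0.06, adjusted p = 3.41e-10) from F2 to F3 and 1.82 (SE 0.06, adjusted p = 1.07e-08) from F1 to F3, and the other 2 ELIP1 clusters were called in the same directions. SEP2 (Cluster-39795.0), another stress-enhanced relative of the antenna proteins, measured 124, 142 and 114 FPKM at F1, 66.2, 70.1 and 72.0 at F2 and 295, 294 and 280.3 at F3, and was upregulated from F2 to F3 (1.91) and from F1 to F3 (1.08). The other SEP2 match, Cluster-21490.0, went the other way, from 12.4 ± 0.42 FPKM at F1 and 7.51 ± 1.05 at F2 to 0.58 ± 0.57 at F3 (n = 3, SD), and was downregulated from F2 to F3 (-3.79) and from F1 to F3 (-4.44).

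STN7, the kinase that phosphorylates LHCII, was highest at F2 in its main cluster: Cluster-40607.3 measured 92.0, 95.8 and 91.6 FPKM at F1, 202, 198 and 194 at F2 and 94.1, 95.2 and 87.1 at F3, with log2 fold changes of 1.13 (called), -1.27 (called) and -0.14 (not called). This name too is that of the Swiss-Prot match, where KEGG gives a cyclin-dependent kinase. The rarer STN7 match, Cluster-38004.0, was called only from F1 to F2 (1.22), and its change from F2 to F3 was -0.24. Zeaxanthin epoxidase, an enzyme of the xanthophyll cycle, had 6 clusters that took different courses. Cluster-53082.6 measured 75.9, 77.6 and 76.3 FPKM at F1, 179, 185 and 182 at F2 and 139, 137 and 139 at F3, and was called only from F1 to F2 (1.29). Cluster-37233.1 was lowest at F2, at 123, 134 and 108 FPKM at F1, 61.0, 62.1 and 58.5 at F2 and 156, 165 and 149 at F3, and was called only from F2 to F3 (1.23). Cluster-34686.5 was downregulated from F2 to F3 (-2.34) and from F1 to F3 (-2.45). Of the other 3, Cluster-53082.3 was upregulated from F1 to F2 (1.17), Cluster-34686.7 from F1 to F2 (1.75) and from F1 to F3 (1.32), and Cluster-45421.0 from F2 to F3 (1.29) and from F1 to F3 (1.95). SRP43 (Cluster-25271.0), the chloroplast chaperone that delivers antenna proteins to the membrane, fell with them from F2 to F3, by 1.67 on the log2 scale, from 126 ± 3.71 to 44.5 ± 0.61 FPKM (n = 3, SD). NYC1, which begins chlorophyll b breakdown, was at 19.2 ± 1.63, 55.8 ± 1.84 and 65.5 ± 0.09 FPKM in its main cluster, Cluster-56807.2, and was upregulated from F1 to F2 (1.59) and from F1 to F3 (1.65). Of its other clusters, Cluster-56807.6 and Cluster-56807.7 were called in the same comparisons and direction, and the rare Cluster-56807.3 was called lower from F2 to F3. STAY-GREEN (Cluster-40373.0), which removes magnesium from chlorophyll a, rose from F2 to F3 by 3.59 on the log2 scale, from 5.10 ± 0.55 to 68.5 ± 3.74 FPKM, and its rarer match, Cluster-58465.0, was called in the same direction. GLK1 (Cluster-21448.0), a transcription factor known in Arabidopsis to activate antenna genes, was rare, at 0.65 ± 0.18, 3.40 ± 0.41 and 1.28 ± 0.44 FPKM, and was upregulated from F1 to F2 (2.41) and downregulated from F2 to F3 (-1.58). OHP2 (Cluster-41107.1), a one-helix relative of the antenna proteins, was upregulated from F1 to F3 (1.78), at 1.15 ± 0.38 and 4.28 ± 0.48 FPKM. TAP38/PPH1, the phosphatase that reverses the action of STN7, was sought under the name protein phosphatase 2C 57. Cluster-51315.6, so named by both Swiss-Prot and KEGG, was not called in any comparison, nor was the 1 match to the kinase STN8 (Cluster-55471.4). The name STN8 is that of the Swiss-Prot match, where KEGG gives a mannan endo-1,4-beta-mannosidase. Cluster-55071.1 was downregulated from F2 to F3 (-1.61). Swiss-Prot calls it a probable protein phosphatase 2C 57 but KEGG a probable 2C 22, so whether it is TAP38/PPH1 is uncertain. In this list, clusters outside its 4 most abundant (Cluster-47813.2, Cluster-39795.0, Cluster-53082.6 and Cluster-40607.3) were picked after their values were seen. The other factors sought, PsbS, LIL3, chloroplast SRP54, ALB3, LTD, violaxanthin de-epoxidase, CAO and NOL, are not analysed here.

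Markers of other cells and conditions moved between the same stages, where 22.0% of all clusters were called higher and 18.8% lower from F1 to F2 and 29.5% and 35.8% from F2 to F3. Epidermis and trichome markers (9 clusters) summed to 1227 to 1249.6 FPKM at F1, 261 to 268 at F2 and 28.5 to 33.9 at F3, with 7 and 9 clusters called lower from F1 to F2 and from F2 to F3. Xylem markers (23) summed to 175 to 199, 84.9 to 92.0 and 38.4 to 43.9 FPKM, with 1 higher and 14 lower from F1 to F2 and 0 higher and 18 lower from F2 to F3. Guard cell markers (3) summed to 28.7 to 33.3, 23.1 to 24.6 and 3.63 to 4.75 FPKM, with 0 and 3 called lower. Of the 26 mesophyll clusters, 7 were called higher and 3 lower from F1 to F2, and 1 higher and 20 lower from F2 to F3. Markers of dividing cells (10) summed to 518 to 618, 179 to 189 and 258 to 263 FPKM, with 9 lower from F1 to F2 and 4 higher and 2 lower from F2 to F3. Senescence markers (8, of which STAY-GREEN is also among the antenna factors) summed to 21.4 to 27.2, 89.8 to 95.5 and 259 to 274 FPKM, with 3 higher and 1 lower from F1 to F2 and 5 higher and 1 lower from F2 to F3. The evening clock genes TOC1, PRR5 and GIGANTEA (21) summed to 22.4 to 27.4, 41.7 to 45.9 and 388 to 396 FPKM, with 5 higher and 0 lower from F1 to F2 and 18 higher and 1 lower from F2 to F3. The hour of sampling is given only as the morning, and the part of these cells and conditions in the antenna result was not tested.

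**Figure D5:**
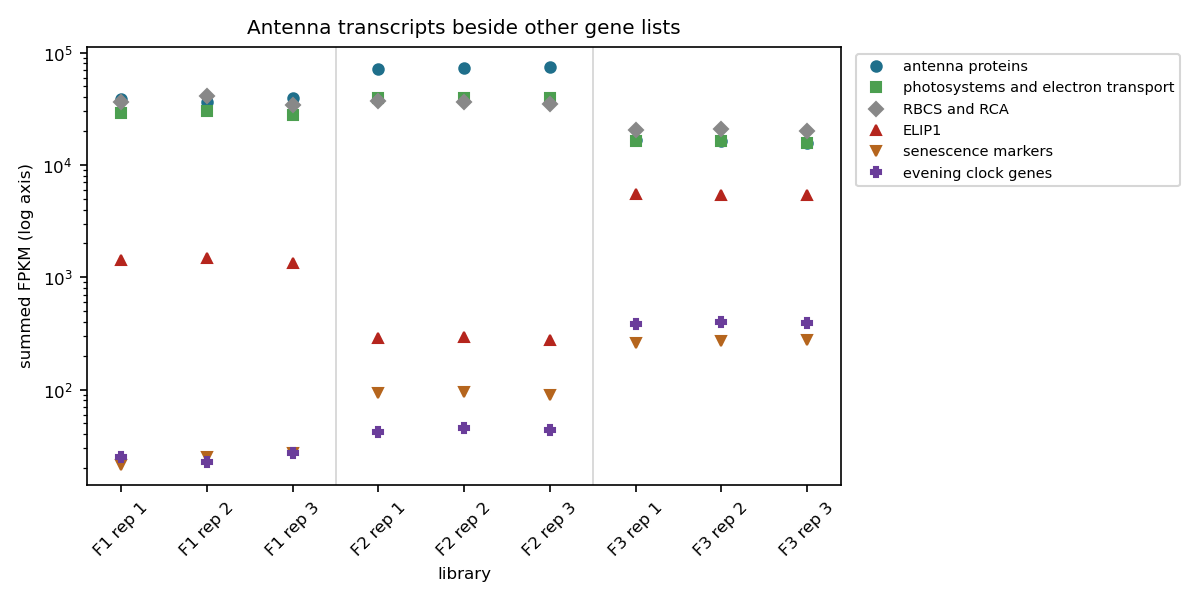
Summed FPKM (log axis) of the antenna, of photosystem and electron transport clusters, of Rubisco small subunit (RBCS) and Rubisco activase (RCA), of the 3 ELIP1 clusters, of senescence markers and of evening clock genes in each of the 9 libraries. The antenna sum is at 71273 to 74598 FPKM in the F2 libraries and at 15650.2 to 16772 in the F3 libraries, while the ELIP1 sum is lowest at F2 (276 to 292 FPKM) and highest at F3 (5418 to 5547 FPKM).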

How the data were processed

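The authors deposited 1 table of transcript clusters, those they had called in at least 1 comparison, with a raw count of fragments per cluster and library. The table also gives the authors' FPKM, those counts scaled by transcript length and library size. The tools of assembly, alignment and counting were not given in the sources used here. Sample labels name another library kit than the study's methods and genome builds of mouse, which is another species. Neither was used. The authors' own fold changes, p-values and calls, which the table also holds, were not used.

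Columns were assigned to stages by the sample labels. Counts were fitted with edgeR 4.0.16 in R 4.3.3 (TMM, all 9 libraries, stage as the factor, no filter), and p-values were adjusted by Benjamini-Hochberg over all 24385 clusters. In a second fit the clusters of each subunit were replaced by their summed counts (24354 rows). SE values were taken from the log2 fold change and its F statistic. Folds against a stage at 0 counts used a floor of 3 counts per library. FPKM was used for levels, shares and ratios, without a test except for the ratios to Lhcb1. The fit was tested on simulated data. The 3 libraries of a stage differed beyond counting noise and were all kept. No genome or sequence was used here, antenna and photosystem clusters were chosen by their KEGG match and the other lists by their Swiss-Prot match, from which the KEGG match of some clusters differs.

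The members and lists were chosen with earlier results of these data known. Antenna clusters named with values per library were the most abundant of each subunit, the 3 largest called changes of each comparison, those called against the majority and those at 0 counts in a stage, 18 in all, together with the 4 most abundant clusters of each partner list and the clusters the text marks as picked later. Cluster-53383.1 of Lhcb4 was also given with values per library, outside this rule. Other clusters given by a log2 fold change complete a subunit. Marker lists were mesophyll, epidermis and trichome, xylem, guard cells, senescence, dividing cells and evening clock genes. Alternatives were DESeq2 1.42.0, RLE scaling, library sizes implied by FPKM, limma 3.58.1 on log2(FPKM + 1) and log2(FPKM + 0.1), a minimum mean of 1 FPKM in a stage, 2 stages alone, the replicate block, no fold threshold, clusters of 1 number summed, and each library left out. Python 3.11.15 with pandas 2.3.3, SciPy 1.17.1 and matplotlib 3.10.9 did the rest.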

Additional observations from a re-analysis of the deposited data

How the results depend on the processing

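Table totals of 8657054 to 14284676 counts and 3 libraries per stage limit the precision most for clusters of a few FPKM, such as Cluster-56200.1 and Cluster-56200.6, where 1 library can set the value. With each library left out, the antenna clusters called higher and lower numbered 12 to 14 and 2 to 2 from F1 to F2, 0 to 0 and 37 to 40 from F2 to F3, and 0 to 1 and 28 to 32 from F1 to F3, the 1 being Cluster-56200.6 without F1 replicate 3. All clusters of the table that share a number were also summed, which gave 15 features that hold antenna clusters. Of these, 8 were higher and 0 lower from F1 to F2, 15 were lower from F2 to F3 and 11 from F1 to F3. The sums for 30836, 33903, 52822 and 54176 take in 1 other cluster each and that for 9532 takes in 71. Such sums mix antenna with other clusters, and the share of all summed features called is not given here. Without the fold threshold 30 antenna clusters were higher from F1 to F2 and 1 from F2 to F3, with no share of all clusters computed beside these counts. The median log2 fold change from F1 to F3 was -1.48 with limma on log2(FPKM + 1). It was -1.30 over the 15 features summed by number, other clusters included.

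For summed counts, the Lhcb1 log2 fold change from F1 to F2 was 0.83 with DESeq2 and with RLE scaling, 0.96 with library sizes implied by FPKM, 0.91 with limma at both pseudocounts, 0.95 with 2 stages alone and 0.95 to 1.03 with a library left out. From F1 to F3 it was -0.96 with limma at both pseudocounts. The Lhca1 value from F1 to F3 was -0.91 with implied library sizes and at both pseudocounts, and -1.13 to -0.98 with a library left out. That of Lhca5 was -0.98 with implied library sizes, -0.82 with limma on log2(FPKM + 1) and -0.93 on log2(FPKM + 0.1). Lhca3 from F1 to F3 ranged from -1.01 to -0.89 with a library left out and was called once, without F3 replicate 3. All subunit sums kept their sign under every alternative run.

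The Lhca share at F1, F2 and F3 was 30.7%, 29.9% and 35.3% from counts and 30.1%, 30.2% and 31.7% from the most abundant cluster of each subunit, and 21.6% to 21.9%, 21.6% to 22.1% and 24.7% to 25.3% with a library left out. Changes that were not called took the other sign as follows: Cluster-47164.5 from F1 to F2 was -0.048 with DESeq2 and -0.0479 with RLE scaling, Cluster-53383.0 from F1 to F3 was 0.12 with implied library sizes, 0.0012 with limma on log2(FPKM + 1) and -0.91 to 0.34 with a library left out, and Cluster-56200.1 from F1 to F3 was -5.49 to 4.95 with a library left out. The cause of these differences was not tested. Same-numbered libraries of different stages had correlations of their deviations between -0.02 and 0.03, and other pairs between -0.03 and 0.04. Values this near 0 cannot tell whether a number marks a tree. With the replicate number as a block, 14 antenna clusters were higher and 2 lower from F1 to F2, 40 lower from F2 to F3 and 29 lower from F1 to F3, and no call of a subunit sum changed.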
